A study of Mus musculus with 2 samples.

Results

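The genes described here were Lgals3, Trem2, Apoe, Spp1, Gpnmb, Cd9, Lpl, Itgax, Clec7a and Axl, 10 of the 21810 genes for which chromatin accessibility could be counted. They were chosen by name as genes of activated brain phagocytes, by a rule that uses no measured value. Earlier results of these data were known when the genes and lists were chosen. Counts set beside shares of all genes are thus descriptions. Accessibility was measured by scATAC-seq, in which the transposase Tn5 cuts open DNA in nuclei and every fragment is tagged with a barcode for its nucleus. The level of a gene was the number of fragments over its body and the 2 kb upstream of its start, per 1000000 fragments (CPM), so all values below are of open chromatin and not of RNA. There was 1 library per condition. Sham and stroke libraries were each made from 4 pooled brains of wild-type male C57BL/6J mice aged 8 to 12 weeks, taken 48 h after surgery without the olfactory bulbs and cerebellum. Stroke was a filament occlusion of the middle cerebral artery for 1 h followed by reperfusion, and in sham mice a filament was placed but not left to block the artery. The sham library held nuclei of whole brains and the stroke library nuclei of the hemisphere on the injured side, so region and injury cannot be told apart. Nuclei came from frozen tissue and were not sorted for any cell type. With no replicate library there was no test between conditions, and the 95% intervals given with values cover counting error only. A gene is called higher or lower in stroke past 1.5-fold, where it had at least 50 fragments.

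Microglia and recruited macrophages clear dying cells and myelin after brain injury. TREM2 is a lipid-sensing receptor of these cells that signals through the adaptor DAP12 (encoded by Tyrobp), and in mouse models of neurodegeneration it is needed for a state known as disease-associated microglia. That state is marked by high RNA of Apoe, Spp1, Gpnmb, Cd9, Lpl, Itgax, Clec7a and Axl. Lgals3 encodes galectin-3, a secreted lectin that binds sugar chains on damaged lysosomes, on dying cells and on TREM2 itself. Several of the genes also have roles outside phagocytes: Apoe is a product of astrocytes, Cd9 of the oligodendrocyte lineage and Lpl of some neurons.

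A barcode was kept if it was called a cell and had over 20% of its fragments in peaks, which left 6817 of 6979 sham barcodes (97.7%) and 5054 of 8740 stroke barcodes (57.8%). Kept nuclei held 73477848 fragments in sham and 52794287 in stroke, with medians of 10356 and 9898 fragments a nucleus. The median share of fragments in peaks was 38.8% in kept sham and 33.2% in kept stroke nuclei. Both libraries held 66 of the same called barcodes, 42 of them kept in both and none of them myeloid in both. Nuclei were grouped by distal accessibility away from the 10 genes, and classes were gated on marker genes other than these. The myeloid class, which takes in microglia, macrophages and related cells, held 25 sham and 258 stroke nuclei, or 0.367% (0.237 to 0.541, exact binomial interval) and 5.10% (4.51 to 5.75) of kept nuclei. All 40 genes of the myeloid marker list had fragments in the myeloid class of both libraries. Marker lists were compared by their share of fragments over genes, against the share in all kept nuclei of both libraries pooled. The myeloid list stood at 3.30 times this pooled share in sham and 3.12 times in stroke myeloid nuclei. Of markers of other blood cells, the granulocyte list stood at 1.19 times in sham and 1.89 times in stroke, and the T or NK cell list at 1.12 and 0.976 times. The other classes were astrocytes (177 sham and 425 stroke nuclei), oligodendrocytes (113 and 194), oligodendrocyte precursor cells or OPCs (99 and 105), glutamatergic neurons (2281 and 1322), GABAergic neurons (1157 and 635) and vascular or leptomeningeal cells (112 and 162). The remaining 1744 and 1044 nuclei were in groups without a name, and 1109 and 909 fell below the gate of their group.

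Over all kept nuclei, Cd9, Clec7a and Spp1 were higher in the stroke library. Cd9, a tetraspanin that organizes membrane partners, went from 16.9 CPM in sham to 31.4 CPM in stroke, a ratio of 1.86 (1.73 to 2.00). Clec7a, which encodes the beta-glucan receptor dectin-1, had 1.05 and 2.31 CPM, a ratio of 2.21 (1.64 to 2.97). Spp1, which encodes the secreted matrix protein osteopontin, had 1.96 and 3.16 CPM, a ratio of 1.61 (1.28 to 2.03). These 3 of 10 genes compare with 9.03% of the 20066 genes with enough fragments, and 0 of 10 were lower against 0.299% of those genes. The median log2 ratio of stroke over sham was 0.35 over the 10 genes and -0.04 over all genes tested.

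Lgals3 had 10.5 CPM in sham and 12.7 CPM in stroke (ratio 1.21, 1.09 to 1.34), and Trem2 had 5.05 and 5.87 CPM (ratio 1.16, 0.997 to 1.36). The interval of Trem2 takes in no difference. Apoe, the main lipid carrier of the brain, stood at 10.3 and 12.6 CPM (ratio 1.23, 1.1 to 1.36), but over all called barcodes the ratio turned to 0.876. Gpnmb, a lysosomal glycoprotein gene, had 11.3 and 12.6 CPM (ratio 1.11, 1.0 to 1.23). Lpl, the gene of lipoprotein lipase, was the only gene of the 10 with a lower value in stroke, at 13.1 and 12.2 CPM (ratio 0.935, 0.845 to 1.03). It turned to 1.1 with levels scaled to fragments in peaks and to 1.03 with levels scaled to fragments in promoters. Axl, a receptor for bridged dying cells, had 15.1 and 20.6 CPM (ratio 1.37, 1.25 to 1.49), and Itgax, the gene of the integrin chain CD11c, 4.89 and 6.48 CPM (ratio 1.33, 1.14 to 1.54).

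The background depended on how open a gene was in sham. With genes put into 4 sets of equal size by sham level per kb, 33.4% of the lowest set were higher in stroke, and this set held Spp1, Gpnmb, Itgax and Clec7a. In the next set, with Lgals3, Trem2, Cd9, Lpl and Axl, 2.25% were higher, and in the top set, with Apoe, 0.199% were. The sham level that made the sets also divides the ratio, so counting error in sham moves both. The part of this in the shares was not tested. The sham level per kb of window was 0.0795 CPM for Clec7a, 0.211 for Itgax and 0.247 for Spp1, all below the 0.380 CPM per kb that fragments spread evenly over the genome would give. Cd9, at 0.463 CPM per kb, lay above that value and was the only called gene outside the lowest set. The share of fragments in peaks, which was lower in stroke, moved with these ratios, and its part in the ratios of Clec7a and Spp1 was not tested.

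**Figure D1:**
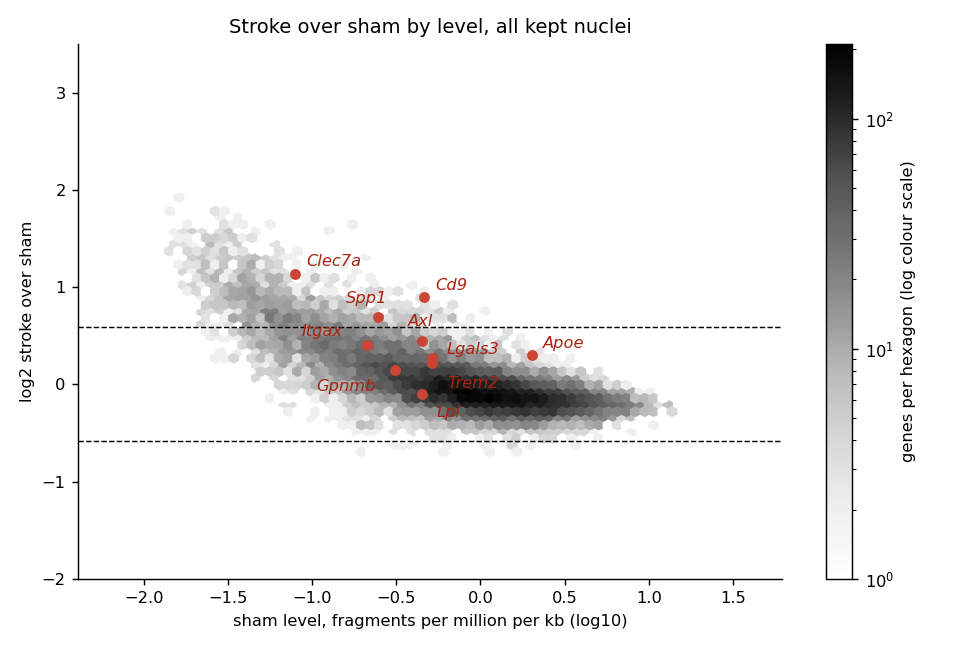
Log2 ratio of stroke over sham (vertical axis) against the sham level in CPM per kb of window on a log10 axis, for all genes tested (grey hexagons, darker for more genes) and the 10 genes (red points), over all kept nuclei. Dashed lines mark 1.5-fold. The grey cloud climbs toward low levels, where Clec7a and Spp1 lie, while Cd9, at 0.463 CPM per kb, stands above the cloud at its level.

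The class in which each gene was most open split the list. With both libraries together, Trem2, Itgax and Clec7a, 3 of the 10 genes, were highest in myeloid nuclei, against 12.5% of all genes tested. Over the same genes 24.6% were highest in vascular or leptomeningeal nuclei, 14.5% in OPCs, 13.8% in GABAergic neurons, 12.5% in astrocytes, 11.2% in glutamatergic neurons and 10.8% in oligodendrocytes. Over both libraries, Spp1 and Lgals3 were highest in vascular or leptomeningeal nuclei with myeloid nuclei next. Apoe and Axl were highest in astrocytes, Gpnmb and Cd9 in OPCs and Lpl in GABAergic neurons. The lead over the next class was within counting error for Lgals3, Spp1 (1.31, 0.599 to 2.66), Apoe (1.20, 0.868 to 1.68), Gpnmb (1.17, 0.847 to 1.58) and Cd9 (1.19, 0.972 to 1.44). In sham, vascular or leptomeningeal nuclei led for Apoe, at 58.6 CPM from 18 fragments. They also led there for Itgax, at 9.76 CPM from 3 fragments against 7.65 CPM from 2 in myeloid nuclei. Myeloid nuclei led for Trem2 and Clec7a in each library, in sham on 5 and 2 fragments, and for Itgax in stroke alone. The myeloid class held 25 sham and 258 stroke nuclei, glutamatergic neurons 2281 and 1322, and GABAergic neurons 1157 and 635. Class and library are thus mixed in the pooled order and in the ratios that follow, and their parts were not tested. Compared with all kept nuclei outside the myeloid class, myeloid nuclei had 5.99 times the level of Trem2 (4.88 to 7.30), 5.26 times that of Clec7a (3.49 to 7.71), 3.74 times that of Cd9 (3.34 to 4.19), 3.26 times that of Spp1 (2.20 to 4.68), 3.14 times that of Itgax (2.43 to 4.01), 2.44 times that of Axl (2.08 to 2.84) and 1.99 times that of Apoe (1.6 to 2.44). The ratio was smaller for Lgals3 at 1.36 (1.05 to 1.74), for Gpnmb at 1.35 (1.04 to 1.71) and for Lpl at 1.23 (0.953 to 1.57).

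**Figure D2:**
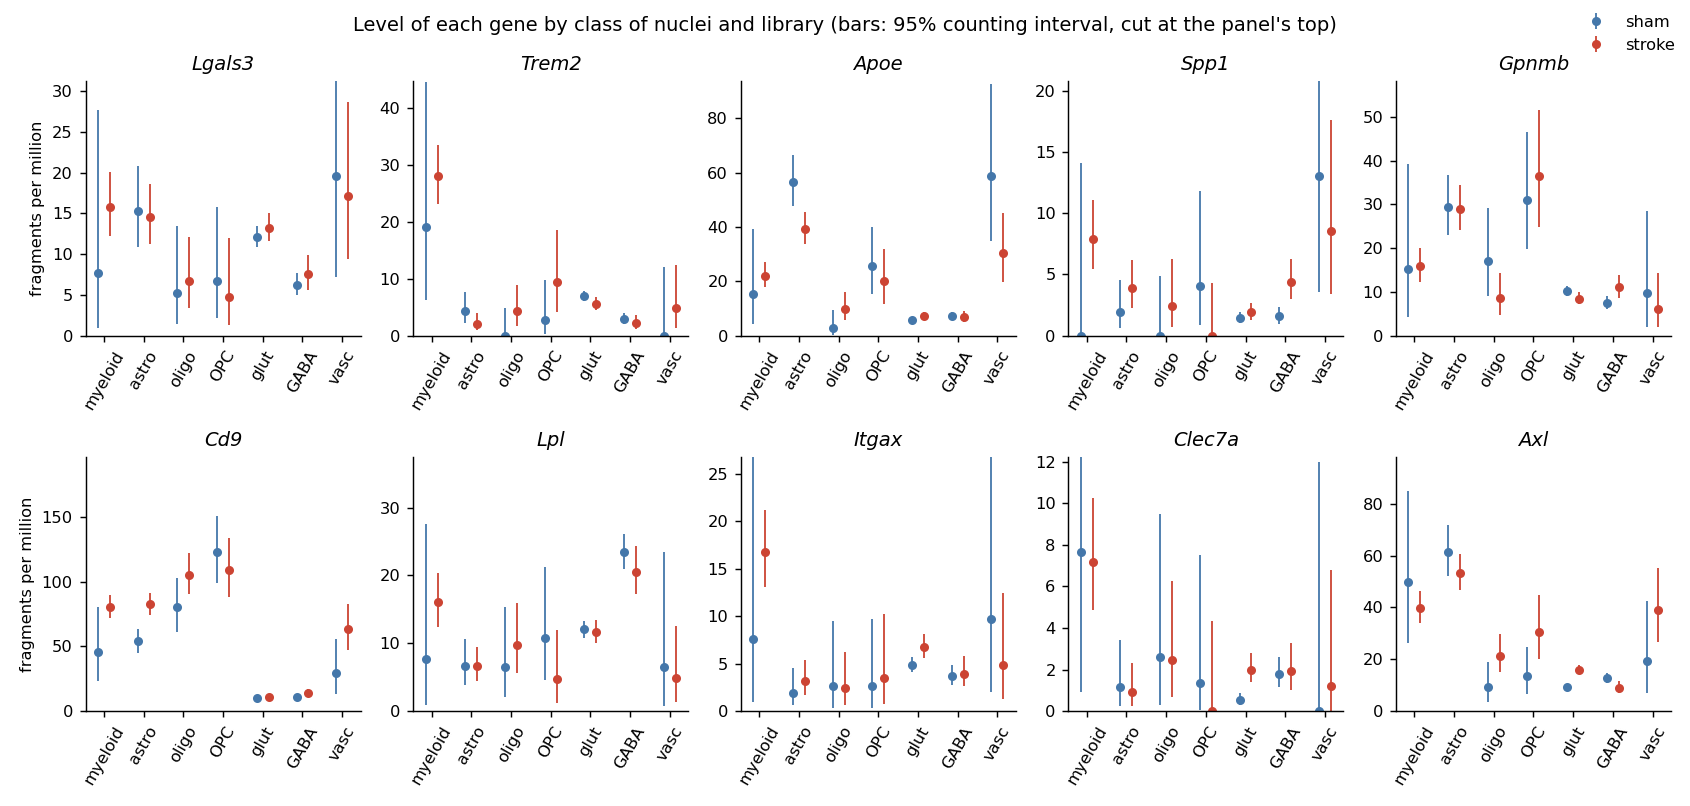
Level in CPM (vertical axis) of each gene in the 7 classes of nuclei, for the sham (blue) and the stroke library (red). Points are summed levels and bars 95% counting intervals, cut off at the top of a panel; astro, oligo, glut, GABA and vasc stand for astrocytes, oligodendrocytes, glutamatergic neurons, GABAergic neurons and vascular or leptomeningeal cells. Trem2 stands highest in myeloid nuclei of both libraries, at 19.1 and 28.0 CPM, and Cd9 in OPCs, at 122.9 and 109.1 CPM.

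Trem2 was the clearest myeloid gene of the list. It had 5 fragments in the 25 sham and 117 in the 258 stroke myeloid nuclei, or 19.1 CPM (6.21 to 44.6) and 28.0 CPM (23.2 to 33.6), and the highest level in any other class was 6.92 CPM in sham glutamatergic neurons and 9.39 CPM in the few stroke OPCs. At least 1 Trem2 fragment was found in 30.2% of stroke myeloid nuclei and in 1.88% of stroke astrocytes, whose median depths were 17338.5 and 9330 fragments. After nuclei with at least 3000 fragments were thinned to that number, the shares were 7.86% (4.72 to 12.1) and 0.767% (0.159 to 2.23).

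Myeloid nuclei had 350 cut sites along Trem2, with both ends of each fragment counted. Of the 500 bp bins from 10 kb upstream of the gene to 2 kb past its end, the bin that starts at the first base had 50 of them (14.3%), 9.56 times the rate of the other 6 classes. A bin 1.0 to 1.5 kb into the gene, looked at after its value was seen, had as many, at 25.2 times the rate of the other classes. All 50 cut sites of the promoter bin came from stroke nuclei, but sham myeloid fragments were too few for this to show a difference. The bin 1.0 to 1.5 kb into the gene had 3 sham cut sites. To show the promoter DNA, the 200 bases before the start of Trem2, chr17:48346201-48346400 in mm10 on the plus strand, are printed with a match to the AP-1 motif TGANTCA in capitals. Sham and stroke myeloid nuclei had 0 and 29 cut sites in it, with the same limit.
Trem2: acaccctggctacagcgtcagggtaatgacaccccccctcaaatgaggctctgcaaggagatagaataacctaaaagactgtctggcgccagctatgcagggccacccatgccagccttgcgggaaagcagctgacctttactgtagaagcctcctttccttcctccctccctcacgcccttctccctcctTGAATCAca

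Itgax and Clec7a, the other receptor genes led by the myeloid class over both libraries, were sparser. Itgax had 2 fragments in sham myeloid nuclei and 70 in stroke myeloid nuclei, or 7.65 CPM (0.926 to 27.6) and 16.8 CPM (13.1 to 21.2). The next class, vascular or leptomeningeal cells, stood at 6.21 CPM over both libraries, and the myeloid level was 2.61 times as high (1.20 to 6.73). A group without a name, led by Cdhr1 and BC030867 and made of 164 sham and 91 stroke nuclei, had 15.5 CPM (11.1 to 21.1), as much as the ungated myeloid group at 15.2 CPM (12 to 18.9). The busiest bin of Itgax for myeloid nuclei was in an intron 4.0 to 4.5 kb from the start. It had 31 cut sites, at 35.2 times (18.7 to 68.9) the rate of the other classes. All 31 came from stroke, but sham myeloid fragments were too few for this to show a difference. The window of Itgax overlaps that of the predicted gene Gm49368, so a fragment may count for either.

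Clec7a had 2 and 30 myeloid fragments, or 7.65 CPM (0.926 to 27.6) in sham and 7.18 CPM (4.85 to 10.3) in stroke, which shows no difference at this depth. Oligodendrocytes came next at 2.51 CPM over both libraries, and the ratio of 2.87 had an interval of 1.19 to 8.41. The bin with most myeloid cut sites, 12 in number, lay upstream of the gene, 1.5 to 2.0 kb from its start, at 11.5 times (5.08 to 24.9) the rate of the other classes. Because the bins were picked by their myeloid count, these rates describe them and are not evidence for the class. Both ends of a fragment can fall in the same bin, so the intervals of bin rates are too narrow.

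The 200 bases with most myeloid cut sites in these bins are printed to show the DNA there. At Itgax they are chr7:128133787-128133986 on the plus strand, with 0 sham and 19 stroke of the 166 myeloid cut sites along the gene, and hold 3 matches to the PU.1 motif AGGAAGT, read on the opposite strand, and 1 to the C/EBP motif TTGCNNAA, all in capitals. PU.1 is the lineage factor of myeloid cells. At Clec7a they are chr6:129474570-129474769 on the minus strand, with 2 and 9 of 90, and hold no match to any motif searched.
Itgax: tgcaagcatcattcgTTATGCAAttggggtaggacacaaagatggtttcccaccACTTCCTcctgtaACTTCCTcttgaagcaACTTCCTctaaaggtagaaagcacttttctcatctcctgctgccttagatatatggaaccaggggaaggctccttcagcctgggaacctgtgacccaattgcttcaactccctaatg
Clec7a: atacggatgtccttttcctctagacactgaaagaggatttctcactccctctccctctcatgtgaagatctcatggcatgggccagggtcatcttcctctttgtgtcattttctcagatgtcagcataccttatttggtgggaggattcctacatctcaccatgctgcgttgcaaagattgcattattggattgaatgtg

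Axl, the remaining receptor, was open in several classes. It was highest in astrocytes, at 61.3 CPM in sham and 53.3 CPM in stroke, and myeloid nuclei followed at 49.7 CPM (26.5 to 85.0; 13 fragments) and 39.7 CPM (33.9 to 46.3; 166 fragments). The bin with most myeloid cut sites lay 1.5 kb past the end of Axl, 698 bases from the start of the neighbour Hnrnpul1, and was as open in the other classes, at 1.11 times their rate (0.893 to 1.37). A bin inside the gene, 11.5 to 12 kb from its start and looked at after its value was seen, had 62 myeloid cut sites against 26 in all other classes together, 43.3 times their rate. Sham nuclei gave 15 of those 62 cut sites.

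The summed level of Lgals3 was spread over several classes. Its myeloid level was 7.65 CPM (0.926 to 27.6; 2 fragments) in sham and 15.8 CPM (12.2 to 20.1; 66 fragments) in stroke. Astrocytes had 15.2 and 14.6 CPM, vascular or leptomeningeal nuclei 19.5 CPM (6 fragments) and 17.1 CPM (14 fragments), and glutamatergic neurons 12.1 and 13.2 CPM. In the order of classes the level of vascular or leptomeningeal nuclei was 1.16 times that of myeloid nuclei, with an interval of 0.666 to 1.93, so the lead was within counting error. OPCs were lowest at 5.65 CPM.

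The start of Lgals3 in RefSeq lies 6109 bases downstream of the GENCODE start used here, and the bin around it, 6.0 to 6.5 kb into the gene, had 19 myeloid cut sites, at 5.7 times the rate of the other classes. Counted in the promoter of the GENCODE start alone, Lgals3 was less open in myeloid nuclei than in all others, at 0.472 times their level.

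Spp1 had no fragment in sham myeloid nuclei, where 3 counts would give 11.5 CPM, and 33 in stroke myeloid nuclei, or 7.90 CPM (5.44 to 11.1). Sham nuclei were thus too few to show a difference, and no ratio is given. Vascular or leptomeningeal nuclei had 13 CPM (4 fragments) in sham and 8.54 CPM (7 fragments) in stroke. The myeloid bin with most cut sites lay 9.0 to 9.5 kb upstream of the start and held 25, at 18.2 times (10.0 to 33.0) the rate of the other classes. Within it, chr5:104425898-104426097 on the plus strand had 1 sham and 21 stroke cut sites and holds 1 match to the PU.1 motif on the opposite strand.
Spp1: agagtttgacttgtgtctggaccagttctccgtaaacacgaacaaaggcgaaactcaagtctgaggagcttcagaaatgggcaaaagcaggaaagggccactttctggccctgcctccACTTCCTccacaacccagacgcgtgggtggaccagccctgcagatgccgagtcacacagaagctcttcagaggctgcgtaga

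Apoe and Lpl, the lipid genes of the list, were led by other cells. Apoe had 56.6 CPM in sham and 39.2 CPM in stroke astrocytes (ratio 0.693, 0.552 to 0.87), against 15.3 CPM (4 fragments) and 22.0 CPM (92 fragments) in myeloid nuclei. The astrocyte value fell just short of 1.5-fold lower, and it was past it with a stricter gate (0.637, 116 and 118 fragments). It was also past it, at 0.614 (116 and 152 fragments), without likely multiplets. These are the deepest 5% of each library and nuclei that passed the stricter gate of a class other than their own. Nuclei without a class had to pass that of more than 1 class. The stricter gate asks for 2.5 on a class's markers (neurons 1.3). Whether these nuclei are multiplets was not tested. Different groups of nuclei made up the astrocyte class in the libraries: a group led by Sdc4, Gfap and Vim held 5 sham and 344 stroke nuclei, and a group led by Arhgef19 and Ndrg2 held 180 and 122. A shallow group of 201 sham and 84 stroke nuclei, with a median of 2830 fragments, stayed unnamed. None of its leading genes was in the astrocyte list used here, though Arhgef19 and Ndrg2 were among them too. Its astrocyte list stood at 3.42 times the pooled share. This group had the highest levels of all groups for Apoe, 88.9 CPM (71.6 to 109.2), and Axl, 60.6 CPM (46.4 to 77.7), and is not in the astrocyte values. Apoe's busiest myeloid bin was its promoter, at 1.35 times the rate of the other classes (0.913 to 1.94). Lpl was highest in GABAergic neurons at 23.4 and 20.6 CPM, and within them in a group led by Rgs9, Pde10a and Drd2, genes of striatal neurons, at 33.6 CPM over both libraries (29.5 to 38.1).

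Cd9 was open in several classes and lowest in neurons. OPCs had 122.9 and 109.1 CPM, oligodendrocytes 80.2 and 105.5 CPM, myeloid nuclei 45.9 CPM (23.7 to 80.1; 12 fragments) and 80.4 CPM (72.1 to 89.5; 336 fragments), astrocytes 53.9 and 82.8 CPM, and neurons of either kind 10.5 to 14.3 CPM. A group without a name, led by Klhdc7a and Htr2c and made of 148 sham and 29 stroke nuclei, had 140.8 CPM (117.0 to 168.0), and the same group was highest for Lgals3 at 33.2 CPM (22.2 to 47.7). Myeloid nuclei had most Cd9 cut sites in an intron 23.0 to 23.5 kb from the start, 51 in number and at 10.7 times (7.39 to 15.2) the rate of the other classes. The 200 bases there, chr6:125471382-125471581 on the minus strand, had 1 sham and 32 stroke cut sites and hold 1 match to the PU.1 motif on the opposite strand.
Cd9: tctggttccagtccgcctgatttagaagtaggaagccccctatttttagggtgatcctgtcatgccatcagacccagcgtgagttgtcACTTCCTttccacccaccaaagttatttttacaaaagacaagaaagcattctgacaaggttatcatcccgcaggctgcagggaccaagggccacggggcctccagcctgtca

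Gpnmb was led by other glia. OPCs (31.1 and 36.4 CPM) and astrocytes (29.3 and 29 CPM) were ahead of myeloid nuclei (15.3 CPM from 4 fragments and 15.8 CPM from 66), and its busiest myeloid bin, in an intron 21 kb from the start, had 1.12 times the rate of the other classes (0.603 to 1.92).

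In the 5 sequences printed, PU.1 was matched in 3, AP-1 and C/EBP in 1 each, and the MiT/TFE motif TCACGTG and the RUNX motif TGTGGTT in none. Both strands were searched. Among 200 base windows before the starts of 32851 RefSeq promoters the PU.1 letters occurred in 6.34%, those of AP-1 in 5.48%, of C/EBP in 7.47%, of MiT/TFE in 2.83% and of RUNX in 3.49%, and in 59997 distal windows of the same length in 5.02%, 7.53%, 7.88%, 1.3% and 4.16%. A match says only that the letters are there.

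**Figure D3:**
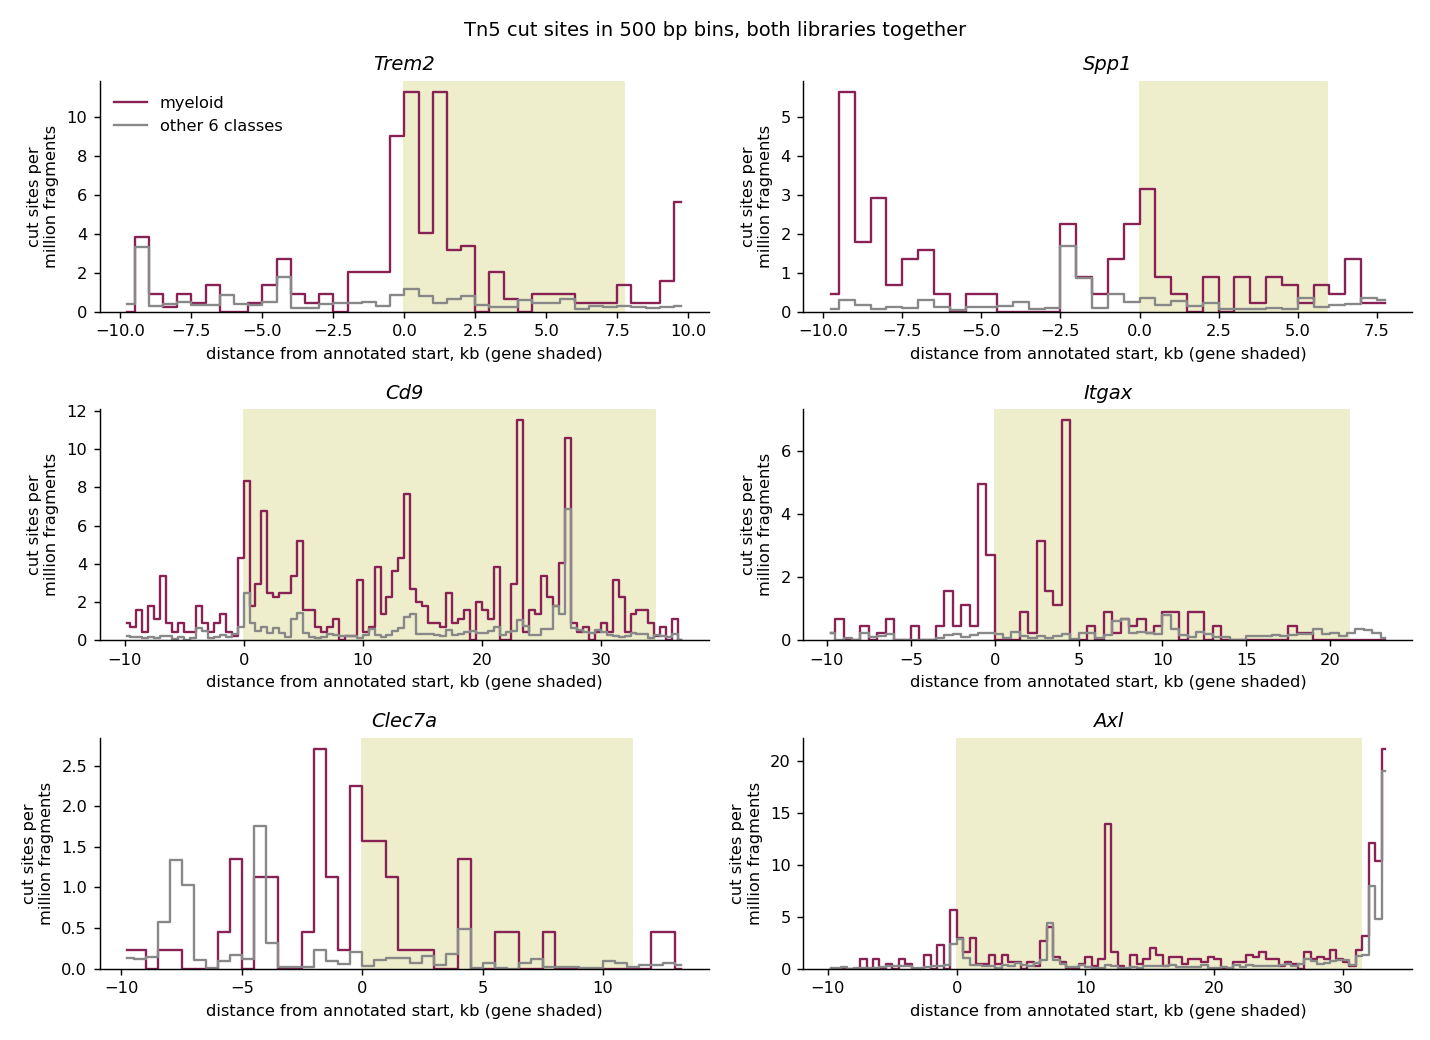
Tn5 cut sites per 1000000 fragments (vertical axis) in 500 bp bins against the distance from the annotated start in kb (gene body shaded), for myeloid nuclei (purple) and the other 6 classes together (grey), both libraries pooled. Trem2 has its myeloid peaks at and just after the start with 11.3 cut sites per 1000000 fragments in each of 2 bins, Spp1 has its peak upstream, Cd9 and Itgax inside the gene, and Axl past its end, where the other classes are as open.

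Within the myeloid class, Lgals3, Cd9, Lpl and Itgax were past 1.5-fold higher in stroke, 4 of the 8 genes with at least 50 fragments there, against 21% of 13696 genes called higher and 17.1% called lower. The sham side rested on 2 fragments for Lgals3, Lpl and Itgax and on 12 for Cd9, and the intervals of the ratios all reached below 1: 2.07 (0.55 to 17.4) for Lgals3, 1.75 (0.99 to 3.43) for Cd9, 2.1 (0.558 to 17.7) for Lpl and 2.19 (0.584 to 18.5) for Itgax. Trem2 had a ratio of 1.47 (0.61 to 4.6), Apoe 1.44 (0.544 to 5.40), Gpnmb 1.03 (0.385 to 3.9) and Axl 0.80 (0.455 to 1.53). Spp1 and Clec7a had too few fragments to be called. With a stricter gate 4 genes kept 50 fragments, and Trem2 (1.67) and Cd9 (1.55) were past 1.5-fold higher, Axl at 0.619 was past 1.5-fold lower and Apoe stood at 0.938. Without likely multiplets only Trem2, Cd9 and Axl could be called. There Cd9 turned to 0.856 (6 sham and 159 stroke fragments) and lost its call, Axl was again called lower in stroke at 0.533 (6 and 99 fragments), and Trem2 came to 2.04 on 1 sham fragment. The marker lists of myeloid cells moved with the library too. Against the pooled share of all kept nuclei, the microglia list stood at 3.09 times in sham and 2.52 times in stroke myeloid nuclei. The monocyte or macrophage list stood at 1.57 and 2.37 times. The part of the makeup of the class in these ratios was not tested. For none of the 10 genes did the interval of the ratio leave out 1 in these nuclei.

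The share of myeloid nuclei was 13.9 times as high in the stroke library as in the sham library (9.22 to 21.9, counting error only, with 1 library each). The ratio was 3.48 after thinning to 3000 fragments and 8.87 over all called barcodes, both with nuclei grouped and gated anew. For thinning, nuclei with fewer fragments were left out, and 5849 sham and 4343 stroke nuclei stayed. Of these, 24 sham and 62 stroke nuclei passed the myeloid gate. With the main classes, 17 sham and 229 stroke myeloid nuclei had at least 3000 fragments. The parts of thinning and of the new grouping in the ratio of 3.48 were not tested. In summed libraries more nuclei of a class and more signal per nucleus cannot be told apart. The part of the higher share in the library-wide ratios was not tested.

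Depth moved with the myeloid levels. The median myeloid nucleus had 4924 fragments in sham and 17338.5 in stroke. Among stroke myeloid nuclei, the 60 with under 8000 fragments had a myeloid marker list at 5.81 times the pooled share. The 92 with 8000 to 20000 had 3.72 times, and the 106 with more had 2.55 times. Trem2 followed the same order, at 57.5 CPM (30.6 to 98.3), 38.3 CPM (28.6 to 50.2) and 20.1 CPM (15 to 26.3). Cd9 went from 123.8 to 92.7 to 70.2 CPM, Clec7a from 31 to 8.83 to 4.24 CPM, Axl from 70.7 to 55.2 to 28.9 CPM, and Apoe from 48.6 to 24.3 to 18.5 CPM. Lgals3 (26.5, 14.7 and 15.4 CPM) and Gpnmb (22.1, 13.2 and 16.6 CPM) did not fall further between the deeper sets. The list of glutamatergic markers stood at 0.553, 0.598 and 0.694 times the pooled share in the 3 sets. That of GABAergic markers stood at 0.442, 0.710 and 0.995 times. Likely multiplets made up 11 of the 25 sham and 112 of the 258 stroke myeloid nuclei. Without them the ratio of myeloid over other nuclei was 7.81 for Clec7a, 7.61 for Trem2, 4.94 for Spp1, 4.5 for Cd9, 4.23 for Itgax, 3.52 for Axl and 1.28 for Gpnmb.

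**Figure D4:**
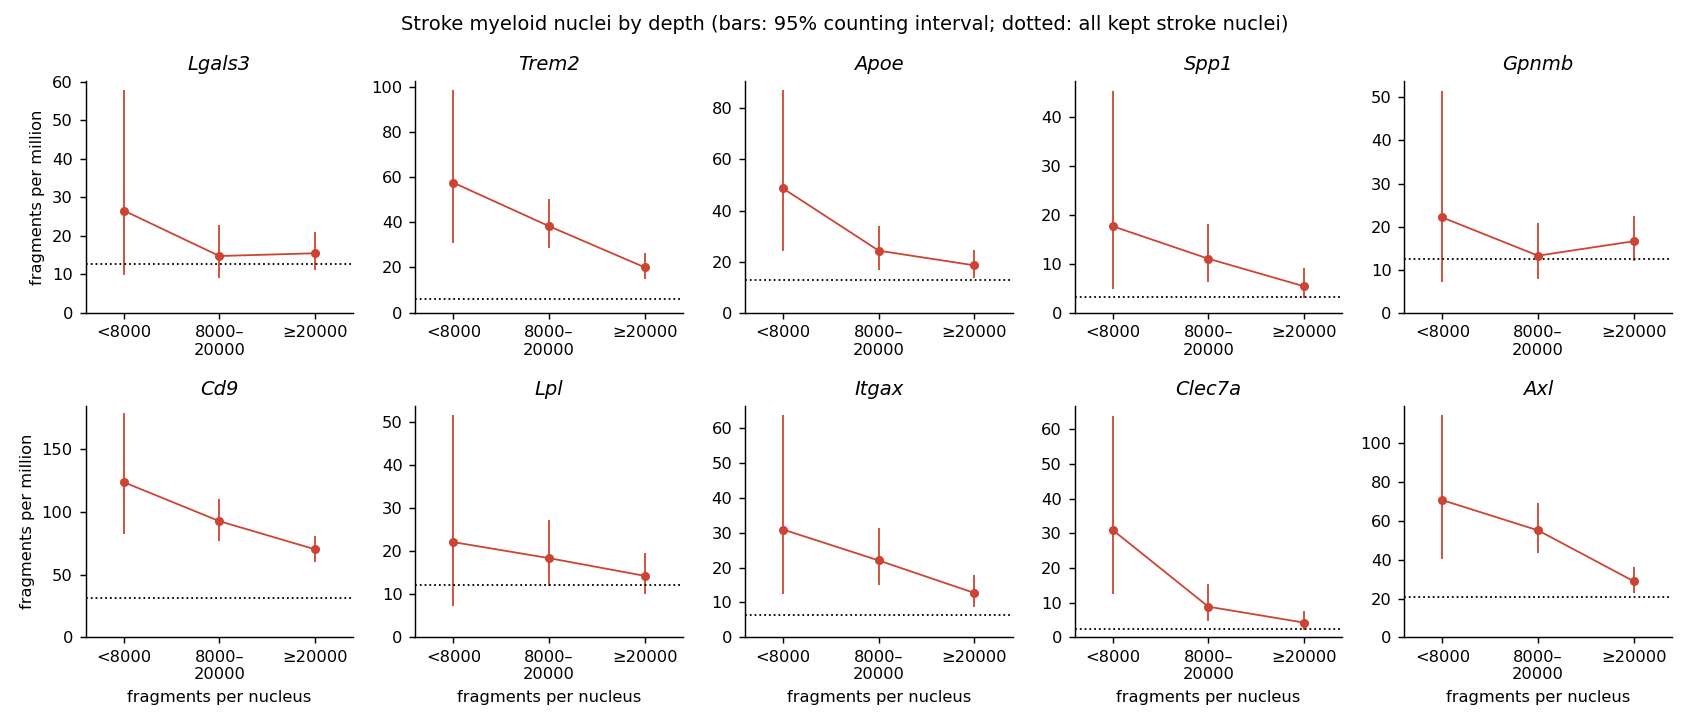
Level in CPM (vertical axis) of each gene in stroke myeloid nuclei split by fragments per nucleus (horizontal axis: under 8000, 8000 to 20000, and 20000 or more). Points are summed levels, bars 95% counting intervals, and the dotted line is the level in all kept stroke nuclei. Trem2 falls from 57.5 to 20.1 CPM and Cd9 from 123.8 to 70.2 CPM from the shallowest to the deepest set.

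In the shallow set alone, the myeloid marker list stood at 6.08 times the pooled share in sham and 5.81 times in stroke. The lists within it stood further apart, with microglia at 5.85 and 4.33 times, monocytes or macrophages at 1.86 and 4.12 times and granulocytes at 1.19 and 3.51 times. Cd9 had 161.9 CPM in sham (8 fragments) and 123.8 CPM in stroke (28 fragments), a ratio of 0.765 (0.340 to 1.94). Axl had 141.7 and 70.7 CPM (ratio 0.499, 0.194 to 1.44) and Trem2 40.5 CPM from 2 fragments and 57.5 CPM from 13 (ratio 1.42, 0.322 to 13). Thus the direction of Cd9 in myeloid nuclei turned with the depth of the nuclei compared, and the 15 sham nuclei of this depth held too few fragments to tell the conditions apart.

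Stroke myeloid nuclei were also split by whether the microglia or the monocyte and macrophage markers led. The microglia list led in 158 and the monocyte list in 100, but 89 of the nuclei lay within 0.5 log2 units of the cut, so these are ranges of a score and not types. The median depths were 16807 and 19028 fragments. Trem2 had 33.4 CPM in the microglia-led and 19.6 CPM in the monocyte-led nuclei, a ratio of 1.70 (1.12 to 2.64), and Lpl had 19.6 and 10.4 CPM, a ratio of 1.88 (1.07 to 3.48). Spp1 went the other way, with 5.10 and 12.3 CPM, a ratio of 0.416 (0.190 to 0.878). The intervals of the other 7 genes took in 1, among them Lgals3 with 15.3 and 16.6 CPM (0.924, 0.551 to 1.57) and Cd9 with 83.2 and 76.1 CPM (1.09, 0.872 to 1.38). Only the 10 genes were compared in this split. With no share of all genes beside them, these values are descriptions.

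Outside the myeloid class, 5 values were past 1.5-fold, all of them higher in stroke. With a stricter gate 2 were past 1.5-fold higher, of which Axl in glutamatergic neurons (1.76) was among the 5 and Gpnmb in GABAergic neurons (1.98) was not. Cd9 in astrocytes then stood at 1.42, and the other 3 had fewer than 50 fragments. With that gate 2 values were past 1.5-fold lower, Apoe in astrocytes (0.637) and Trem2 in glutamatergic neurons (0.476, from 0.81 with the main gate). Without likely multiplets 2 were higher, Axl in glutamatergic neurons (2.02) and Cd9 in vascular or leptomeningeal nuclei (2.1), with Cd9 in astrocytes at 1.41, and Apoe in astrocytes was called lower (0.614). No share of all genes was computed for either of these settings, so their counts have no background. With the main gate none of the 10 genes was called lower in these classes, where 5.85% of all genes were lower in astrocytes, 13.6% in oligodendrocytes, 13.2% in OPCs, 0.769% in glutamatergic neurons, 2.27% in GABAergic neurons and 13.5% in vascular or leptomeningeal nuclei. Cd9 was higher in astrocytes, at 53.9 CPM in sham and 82.8 CPM in stroke (ratio 1.54, 1.26 to 1.88), 1 of 5 genes with enough fragments against 7% of all genes. It was also higher in vascular or leptomeningeal nuclei, with 29.3 CPM (9 fragments) and 63.5 CPM (52 fragments), a ratio of 2.17 (1.06 to 5.00), where 13.4% of genes were called higher. In OPCs (0.888, 0.658 to 1.20) and glutamatergic neurons (1.02, 0.843 to 1.22) Cd9 stayed close to 1, and in oligodendrocytes the ratio was 1.32 (0.977 to 1.79). Cd9 was the only gene of the 10 with enough fragments in oligodendrocytes, where 6.09% of genes were higher, and it and Gpnmb were the only ones in OPCs, where 6.7% were. In glutamatergic neurons Clec7a had 0.53 and 2.00 CPM (16 and 35 fragments; ratio 3.78, 2.04 to 7.31) and Axl 9.47 and 16.0 CPM (ratio 1.69, 1.43 to 2.00), 2 of 10 genes against 3.91%. In GABAergic neurons Spp1 had 1.56 and 4.41 CPM (22 and 30 fragments; ratio 2.82, 1.57 to 5.13), 1 of 9 genes against 3.24%. Clec7a and Spp1 were in the least open set, where 33.4% of genes were higher over all kept nuclei. No share by level was computed within a class. Different groups made up the neuronal classes in the libraries. The glutamatergic group led by Olfr464 and Nectin3 held 348 sham and 6 stroke nuclei, that led by Ccbe1 held 13 and 303, and that led by Slc7a9 held 3 and 270.

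The wider pathways were followed with 8 lists of genes, 125 genes in all. Of the partners of TREM2 and DAP12, 13 of 14 were highest in myeloid nuclei, against 12.5% of all genes, among them Tyrobp, with 22.8 CPM in myeloid and 2.42 CPM in all other nuclei, but only Ms4a4a, a membrane protein gene, was higher in stroke over all nuclei, at 1.5 and 2.58 CPM (1.72, 1.33 to 2.23). Of the other lists, 14 of 32 genes of the disease-associated and MiT set, 6 of 28 of lipid handling, 5 of 12 lectin genes, 4 of 13 of the TAM system, 3 of 10 around osteopontin, 3 of 10 integrin genes and 0 of 7 galectins were highest in myeloid nuclei. The counts over all nuclei are to be read beside the 9.03% of all genes called higher. Among C-type lectins and dectin-1 signaling genes 6 of 12 were higher: Clec1b (2.53), Clec4n (2.03), Clec12b (1.90), Olr1 (1.88), Clec4d (1.70) and Clec4e (1.56), each given as the ratio of stroke over sham. Sham levels of these 6 genes were 0.653 to 2.42 CPM, and all 6 lay in the set of least open genes per kb, where 33.4% were higher. Of 28 genes of lipid uptake, transport and storage, 4 were higher, namely Plin2 of lipid droplets (2.08), Apoc1 next to Apoe (1.59), the cholesterol exporter Abca1 (1.56) and the scavenger receptor Cd36 (1.53).

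Of 13 genes of the TAM receptors and their bridging partners, 3 were higher: Havcr2 with 3.5 and 7.37 CPM (2.11, 1.79 to 2.48), the ligand Pros1 with 12.6 and 21.1 CPM (1.67, 1.53 to 1.83) and the receptor Mertk with 34.2 and 57.1 CPM (1.67, 1.58 to 1.76). Of 32 other disease-associated microglia and MiT/TFE genes 4 were higher, the chemokines Ccl3 (2.92) and Ccl4 (2.78), the protease gene Ctsz (1.77) and the transcription factor gene Tfec (1.57). The osteopontin list had 1 of 10, the receptor Cd44 (1.58), the galectin list 1 of 7, Lgals9 (1.5), and the integrin and tetraspanin list 0 of 10. No gene of any list was lower over all nuclei. The medians of the log2 ratios were 0.61 for the lectins, 0.30 for the TREM2 list, 0.29 for the TAM list, 0.19 for the osteopontin list and for the other disease-associated genes, 0.16 for the integrin list, -0.01 for the galectins and -0.06 for the lipid genes, beside -0.04 for all genes.

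In myeloid nuclei alone, the pathway genes with the highest ratios that could be computed were the lysosomal genes Cd68 (1 sham and 83 stroke fragments; 5.2, 0.907 to 207.7) and Cd63 (2 and 159; 4.98, 1.36 to 41.5) and Apoc1 (1 and 68; 4.26, 0.739 to 170.6). Treml2 (71 stroke fragments) and Ms4a6d (58) had no fragment in sham myeloid nuclei, so no ratio is given. The lowest were the ferritin gene Ftl1 (72.6 and 39.5 CPM; 0.544, 0.337 to 0.926), the signaling gene Bcl10 (76.5 and 43.3 CPM; 0.567, 0.356 to 0.95) and the bridging protein gene Mfge8 (22.9 and 13.6 CPM; 0.595, 0.257 to 1.69). Beside the 21% of all genes called higher and 17.1% called lower in myeloid nuclei, the integrin and tetraspanin list had 4 of 10 higher and 2 lower, the lectins 0 of 5 and 3, the galectins 2 of 5 and 0, and the TREM2 list 2 of 9 and 0. The lipid list had 4 of 22 higher and 1 lower, the TAM list 2 of 12 and 1, the osteopontin list 1 of 8 and 1, and the other disease-associated genes 5 of 27 and 1.

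Genes whose levels ran most like those of Trem2 and Lgals3 were ranked by Pearson's r of log2(CPM + 1) over the 14 combinations of class and library, among 17706 genes with at least 200 fragments. The points share libraries and differ in depth, and the ranking is a description. For Trem2 they were Prss16 (r = 0.95), Mmp12 (0.91), Slc16a6 (0.89), Ly9 (0.89) and Mknk1 (0.88). For Lgals3 they were Stard8 (0.90), 4930402F06Rik (0.86), Prrx2 (0.86), Ifitm2 (0.86) and Plpp1 (0.85). Mmp12, a macrophage elastase gene, was the only gene of the 10 that also stood in a pathway list.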

How the data were processed

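Chromatin accessibility was measured by scATAC-seq in 1 sham and 1 stroke library. The authors aligned the reads to mm10 and called barcodes with Cell Ranger ATAC 2.1.0, per the submitters' processing notes. The deposited values are counts without normalization: read pairs per fragment, and fragments in all and in peaks per barcode. The scRNA-seq data of the study were not used here.

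Fragments overlapping a gene body of GENCODE M21 and 2 kb upstream were counted with Python 3.11.15, numpy 2.4.6, scipy 1.17.1, pandas 2.3.3 and scikit-learn 1.9.0, and scaled to 1000000 fragments of the nuclei summed (CPM). The filter asked for over 20% of fragments in peaks. Nuclei were put into 35 groups from 60000 distal bins of 1 kb, leaving out the 10 kb around the genes described, by latent semantic indexing with 30 components. A group was named by the marker list with the highest ratio of observed to expected fragments, at least 2 (neurons 1.1), and each nucleus had to reach 1.5 (neurons 1) on its own markers. This rule was set after the data had been seen. Shallow groups with no marker of their own among their leading genes stayed unnamed. Doublets were not removed in the main analysis. The genes and lists were chosen with earlier results of these data known. All 10 genes are named, as are pathway genes past 1.5-fold over all nuclei, the 3 highest and 3 lowest in myeloid nuclei, and the 5 genes most like Lgals3 and Trem2. Bins, sequences and groups singled out beyond this rule were chosen after their values were seen.

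Intervals at 95% are exact: Poisson for CPM, conditional binomial for ratios, binomial for shares. For bin rates, both ends of each fragment were counted as independent cut sites. Those intervals are too narrow where both ends fall in the same bin. The calls, the intervals of ratios and the grouping of nuclei were tested on simulated counts. The counting of fragments was not part of that test. Sequences were read from mm10, and promoters for the motif shares from RefSeq. A region near Lgals3 is not reported here. The DNA of Clec7a is annotated as a polymorphic pseudogene in GENCODE M21.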

Additional observations from a re-analysis of the deposited data

Results flagged for a closer look

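With the main gate, the ratio of Axl lay on different sides of 1 in different classes, though the difference was not tested. Stroke over sham was 2.33 in oligodendrocytes (7 and 35 fragments), 2.26 in OPCs (10 and 26 fragments) and 1.69 in glutamatergic neurons, but 0.713 in GABAergic neurons (180 and 62 fragments), and these intervals did not take in 1. The value in oligodendrocytes and that in OPCs fell short of the 50 fragments asked of a call. That in GABAergic neurons was not past 1.5-fold. It was nearer 1 with the stricter gate (0.801, 140 and 51 fragments) and without likely multiplets (0.750, 129 and 53), where no interval was computed. The GABAergic group led by Rgs9 held 461 sham and 35 stroke nuclei, and that led by Gad2 held 139 and 287.

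Fragments over these genes were also counted in called barcodes that the peak filter left out, 162 in sham and 3686 in stroke. Itgax had 8.64 CPM (7.70 to 9.67) in the left-out stroke barcodes, above 4.89 CPM in kept sham nuclei and 3.75 CPM in left-out sham barcodes. Clec7a had 5.06 CPM (4.34 to 5.85) in the left-out stroke barcodes, against 1.05 and 1.5 CPM. The windows of Itgax and Clec7a are 23.1 and 13.2 kb long. Per kb, both left-out stroke values were thus close to the 0.380 CPM that fragments spread evenly over the genome would give. The left-out stroke barcodes had a myeloid marker list at 1.11 times the pooled share of kept nuclei, while Apoe stood at 3.64 CPM and Trem2 at 4.15 CPM. What these barcodes hold was not tested.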

How the results depend on the processing

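No paired analysis was possible because sham and stroke were measured in a lone library apiece. The count of 3 genes higher in stroke over all nuclei became 5 (Itgax and Axl added) with levels scaled to fragments in peaks, where the median log2 ratio of all genes moved to 0.19 and 16.1% of genes were called higher. The count of 3 genes led by myeloid nuclei became 5 with levels scaled to fragments in peaks or in promoters and 7 with myeloid nuclei of under 8000 fragments alone. No share of all genes was computed for counts led by or called in myeloid nuclei under other settings. None was computed for calls in the other classes with the stricter gate or without multiplets. Those counts have no background to be read against. The count of 4 of 8 genes higher in myeloid nuclei became 2 of 2 with the promoter alone, 2 of 4 with a stricter gate (Trem2 and Cd9), 1 of 3 without multiplets (Trem2, with Cd9 turned from 1.75 to 0.856), and 6 with either other scaling or with cut sites. It was 0 after thinning to 3000 fragments and 0 in nuclei of under 8000 fragments, where none of the 10 genes had 50 fragments. The myeloid share ratio of 13.9 became 5.40 for nuclei of under 8000 fragments. It became 8.87 with all called barcodes and 3.48 after thinning, both with nuclei grouped anew. Axl in myeloid nuclei went from 0.80 to lower calls of 0.619 and 0.533 with the stricter gate and without multiplets. The 5 values past 1.5-fold higher in other classes became 2 with the stricter gate and 2 without multiplets, where Apoe in astrocytes (0.637 and 0.614) and, with the stricter gate, Trem2 in glutamatergic neurons (0.476) were called lower. Library-wide, Apoe turned to 0.876 over all called barcodes and Lpl to 1.1 and 1.03 with the other scalings. For single genes, myeloid over other nuclei turned to 0.316 for Gpnmb and 0.332 for Lpl after thinning and to 0.472 for Lgals3 with the promoter alone. The thinned values came from 24 sham and 62 stroke myeloid nuclei of 3000 fragments each. None of the 10 genes had 50 fragments there and no interval was computed, so these 2 values do not show a direction. Of the ratios of myeloid over other nuclei 111 stayed within counting error and 37 moved, and of the library-wide ratios 65 stayed and 25 moved. The cause was not tested. Without barcodes shared by the libraries the counts held. With 25 groups the myeloid count was 5, and 2 rather than 3 of the busiest myeloid bins lay in promoters. Those settings, the depth set and the gates for the other classes were added after seeing the data. The sham myeloid class, with 25 nuclei, had 0 to 13 fragments for each of the 10 genes.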
